A study of Rattus norvegicus with 12 samples.

Results

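The genes described here encode enzymes of the tricarboxylic acid cycle, together with the cytosolic aconitase. They are Cs, Aco1, Idh3a, Idh3g, Dld, Suclg1, Suclg2, Fh and Mdh2, and every probe set that the platform annotation ties to 1 of these symbols alone was followed. This gave 11 probe sets for 8 of the 9 genes, out of 31042 probe sets and 14217 genes in all: 4 probe sets for Cs and 1 for each of the others, with Fh not analysed here. The arrays hold RNA of hepatocytes freshly isolated by collagenase perfusion from livers of Fischer 334 rats and not cultured. Heart-beating donors were compared with donors that had been dead for 4, 16 or 30 h when the cells were taken, with 3 biological replicates per the labels, 1 array each, in every group, so every value has n = 3 per group. Each replicate is called an animal here; the labels state no pooling. All animals share the strain and the isolation procedure, and no sex, age or treatment is stated. The design asks how the transcripts of hepatocytes from a donor without heartbeat depend on the time since death.

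The tricarboxylic acid cycle oxidises acetyl groups in the mitochondrial matrix and passes the electrons, as NADH and reduced flavin, to the respiratory chain. Citrate synthase starts it, an aconitase and an isocitrate dehydrogenase follow, the 2-oxoglutarate dehydrogenase complex makes succinyl-CoA, and succinyl-CoA ligase, succinate dehydrogenase, fumarase and malate dehydrogenase return oxaloacetate. In liver its intermediates also leave for glucose, fatty acid and amino acid synthesis. The cytosolic aconitase has a further role, as an iron-responsive RNA-binding protein.

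At 30 h after death Suclg1, Dld, Suclg2, Mdh2 and Idh3g fell against heart-beating donors, by 2.53-fold for Suclg1 and 1.27-fold for Idh3g at the ends of the range. Aco1 rose 1.48-fold, and 1 of the 4 probe sets of Cs rose 1.24-fold. Thus 5 of 11 probe sets were called lower and 2 higher by limma at an adjusted p under 0.05, where 9.36% of all probe sets were called lower and 10.4% higher (19.7% in either direction). The median log2 difference was -0.20 over the 11 probe sets and 0.01 over all. In a fit of only the 50% of probe sets with the higher mean signal, 31.9% were called at 30 h and 9.72% at 16 h. Of the 10 member probe sets in that fit 2 were called higher and 5 lower at 30 h. At 16 h Aco1 alone was called, higher, where 4.67% of all probe sets were called (3.18% higher and 1.49% lower). At 4 h limma called 0 of 11, with 1 of 11 at an unadjusted p under 0.05, and 0.0226% of all probe sets. From 4 to 16 h 3 of 11 were called (7.82% of all), and from 16 to 30 h 3 of 11, all lower (10.2% of all in either direction and 5.95% lower). The Gapdh 3' to 5' difference of each array is a measure of RNA quality, larger where RNA is more degraded. It was higher at the later times and cannot be told apart from the time after death here. With it as a covariate in limma, 0 of 11 were called at 30 h (2 at an unadjusted p under 0.05), and all 5 falls changed sign. That fit called 0 of all 31042 probe sets at 30 h, so the count of 0 is not particular to the members.

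**Figure D1:**
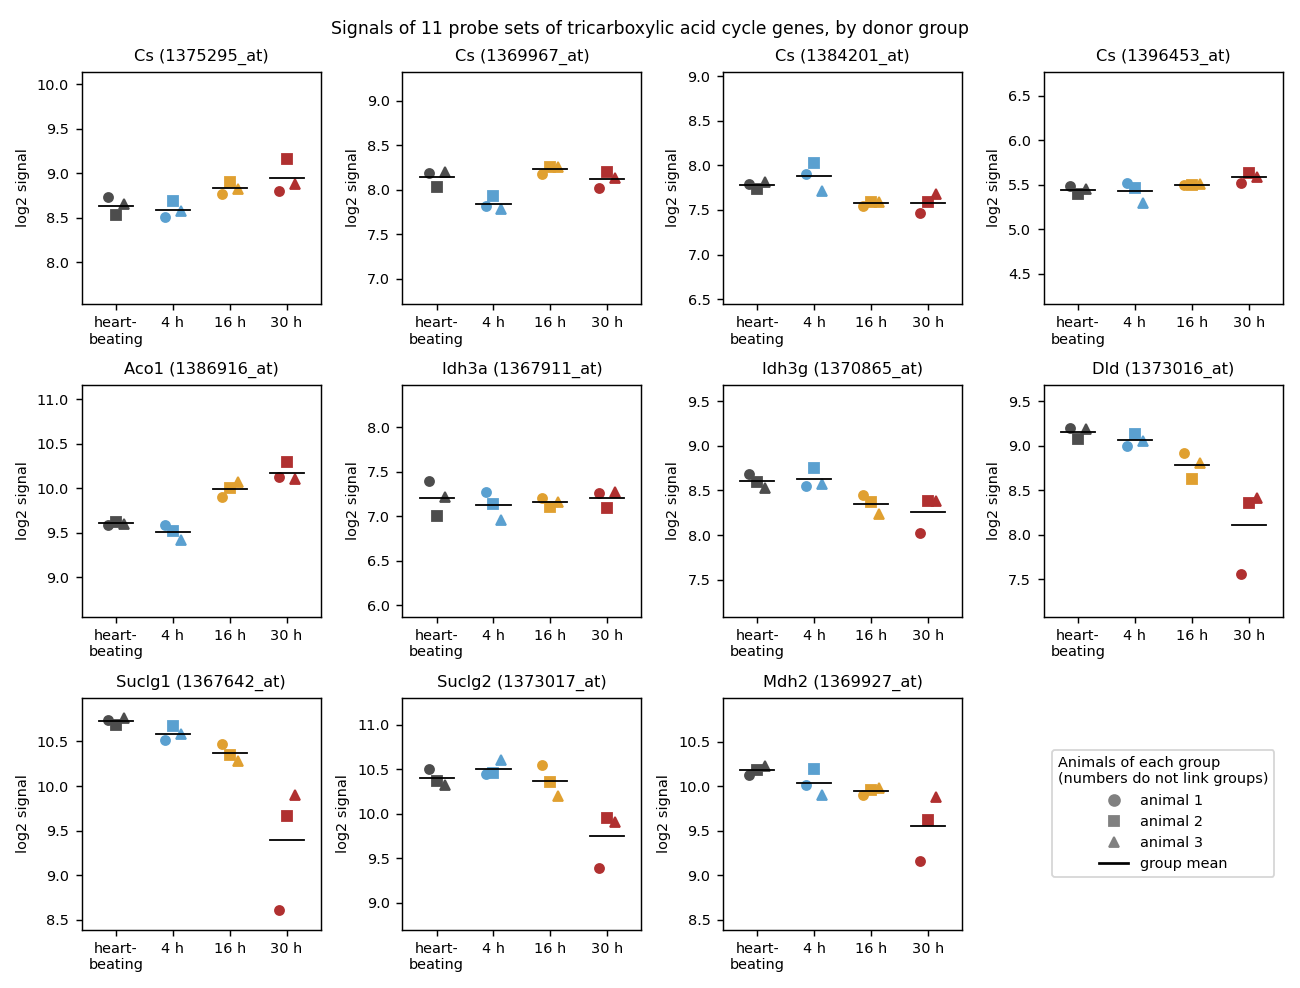
Log2 signal (y axis) of the 11 probe sets in the 4 donor groups (x axis); each point is 1 array, its shape the animal number within the group, and the bar is the mean of 3. Suclg1, Dld, Suclg2 and Mdh2 are lowest at 30 h, where animal 1 lies below the other animals; Aco1 is higher at 16 and 30 h than in heart-beating donors.

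Read array by array, the groups separated in more probe sets than the test called. All 30 h arrays lay above all heart-beating arrays in 3 of 11 probe sets and below them in 6, where 16.9% and 16.6% of all probe sets did so. At 16 h these counts were 3 above (13% of all) and 5 below (15.7%), and at 4 h 0 above (7.23%) and 3 below (6.22%), namely Aco1, Suclg1 and 1369967_at of Cs.

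Some facts of the whole set of arrays bear on these values. Arrays of 1 group correlated at 0.991 or more, and the median SD between animals was 0.08 log2 units in each of the first 3 groups and 0.12 at 30 h. The Gapdh 3' minus 5' control difference was 0.31 to 0.45 in heart-beating donors, 0.27 to 0.46 after 4 h, 0.85 to 1.25 after 16 h and 1.79 to 2.30 after 30 h; the shift from the heart-beating mean was 0.66 after 16 h and 1.58 after 30 h (two-sided exact permutation p = 0.1 for each, the smallest that 3 arrays against 3 can give, and 1 after 4 h, where it was -0.01). All 9 measured hepatocyte markers were bright in every group, with Asgr2 the dimmest (mean log2 signal 10.09 in heart-beating donors and 8.76 after 30 h). Markers were counted by the brightest probe set of each gene. Over all genes read so, 4.3% were higher and 1.3% lower at 16 h, and 12.5% and 10.5% at 30 h. At 30 h 3 of the 9 hepatocyte markers fell and 1, Hnf4a, rose (0.76). Of their 13 probe sets 5 were lower and 1 higher. Another probe set of Hnf4a was called lower (-0.61), as was another of Cps1 (-1.70, against 0.08 by its brightest). Kupffer cell markers had a log2 summed signal of 11.995 to 12.06 in heart-beating donors, 11.94 to 12.34 after 4 h, 11.49 to 11.69 after 16 h and 11.13 to 11.50 after 30 h, with 4 of 9 lower at 16 h and 7 of 9 at 30 h and 0 higher. For red cell markers the sum was 12.06 to 12.38 in heart-beating donors, then 12.19 to 13.94, 13.78 to 14.07 and 13.74 to 14.33 after 4, 16 and 30 h, with 3 of 5 higher at 16 h and 4 of 5 at 30 h. For stellate cell markers it was 10.72 to 11.28 in heart-beating donors, then 10.70 to 10.96, 11.44 to 11.63 and 11.43 to 11.94, with 1 of 8 higher at 16 h and 4 of 8 at 30 h. Endothelial markers gave 11.04 to 11.26, then 11.38 to 11.57, 11.75 to 11.77 and 10.98 to 11.64 (3 of 6 higher at 16 h and 1 of 6 at 30 h), while 0 of 4 bile duct and 0 of 5 lymphocyte markers were called at 16 or 30 h. The log2 scale holds no 0; the dimmest marker of another cell type was Krt7, a bile duct keratin, at 4.25 in heart-beating donors and 4.21 at 30 h. The part of RNA quality and of these other cells in the changes below was not tested. In bulk RNA, fewer cells of a type and less RNA per cell cannot be told apart.

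The sequence before the start of 4 of these genes is shown because their transcripts gave the largest falls and the largest rise of the set. Each stretch is the 250 bases upstream of the RefSeq start on build GRCr8, read 5′ to 3′ on the gene's strand, and the start itself is not included. Capitals mark the GC box GGGCGG and the CCAAT box CCAAT, on either strand.
Suclg1 (chr4:106866079-106866328, plus strand): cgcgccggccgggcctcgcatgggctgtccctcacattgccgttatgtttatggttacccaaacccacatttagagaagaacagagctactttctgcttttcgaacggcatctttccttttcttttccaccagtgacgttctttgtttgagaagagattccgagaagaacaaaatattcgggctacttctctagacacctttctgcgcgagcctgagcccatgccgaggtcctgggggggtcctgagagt
Dld (chr6:53652348-53652597, minus strand): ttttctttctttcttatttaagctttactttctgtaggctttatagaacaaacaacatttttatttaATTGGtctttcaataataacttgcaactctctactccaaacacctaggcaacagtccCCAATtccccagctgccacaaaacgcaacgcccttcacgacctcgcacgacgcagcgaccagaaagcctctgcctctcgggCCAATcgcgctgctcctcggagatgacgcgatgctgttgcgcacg
Suclg2 (chr4:129893938-129894187, minus strand): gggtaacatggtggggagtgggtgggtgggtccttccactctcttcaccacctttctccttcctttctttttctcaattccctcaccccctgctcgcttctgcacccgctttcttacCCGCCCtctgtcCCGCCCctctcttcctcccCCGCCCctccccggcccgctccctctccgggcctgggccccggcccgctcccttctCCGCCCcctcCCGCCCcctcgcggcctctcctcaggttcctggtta
Aco1 (chr5:60055645-60055894, plus strand): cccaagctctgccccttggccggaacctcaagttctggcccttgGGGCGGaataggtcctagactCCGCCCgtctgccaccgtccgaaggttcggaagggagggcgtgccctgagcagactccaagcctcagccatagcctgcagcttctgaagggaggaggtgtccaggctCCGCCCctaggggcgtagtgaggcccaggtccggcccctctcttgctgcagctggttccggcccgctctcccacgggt
GC content was 51.6% for Suclg1, 47.2% for Dld, 67.2% for Suclg2 and 66.8% for Aco1, against a median of 51.2% over 33465 such stretches.

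Such stretches were available for 8 of the 9 genes, Fh included and Idh3a not. The GC box, the core of sites for Sp1-like factors, was found in 5 of the 8 (Suclg2, Aco1, Cs, Mdh2 and Fh), and 30.5% of all stretches hold it. The CCAAT box, bound by NF-Y, was found in 4 of 8 (Dld, Cs, Fh and Idh3g), against 34% of all. Neither was found in Suclg1, whose transcript fell most, while Aco1, which rose, and Suclg2, which fell, both carry GC boxes. The motif of NRF1 (3.75% of all stretches) and the ERR letters TCAAGGTCA (0.388%) were found in 0 of 8. All motifs were searched on both strands, and these motifs do not overlap one another in the stretches shown. Suclg2 holds 5 GC boxes, Aco1 3 and Dld 3 CCAAT boxes. A match is a description of the letters and not of binding.

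Citrate synthase, encoded by Cs, condenses acetyl-CoA with oxaloacetate, and its 4 probe sets did not change alike. The brightest, 1375295_at, read 8.73, 8.53 and 8.66 in heart-beating donors, 8.51, 8.69 and 8.57 after 4 h, 8.77, 8.90 and 8.82 after 16 h and 8.80, 9.16 and 8.88 after 30 h. All arrays of 16 and 30 h lay above those of heart-beating donors, and the rise at 30 h was 0.31 (SE 0.09, adjusted p = 0.0337). It was no longer called without heart-beating donor 2 (0.25, adjusted p = 0.128), donor 3 (0.32, adjusted p = 0.0779) or 30 h animal 2 (0.20, adjusted p = 0.11), nor with only the 2 groups compared (adjusted p = 0.101).

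The other Cs probe sets were not called against heart-beating donors at any time. Probe set 1384201_at read 7.79, 7.73 and 7.82 in heart-beating donors and 7.47, 7.59 and 7.68 at 30 h, a difference of -0.20 (SE 0.08, adjusted p = 0.115) without overlap between the groups; after cyclic loess it was called lower (-0.25, adjusted p = 0.043), and so it was after a further quantile normalization (-0.25, adjusted p = 0.0487). From 4 to 16 h 1384201_at fell by 0.31 (SE 0.08, adjusted p = 0.0392), from 7.90, 8.03 and 7.71 to 7.54, 7.59 and 7.59, a call lost after median centring (-0.27, adjusted p = 0.075), with a variance trend (adjusted p = 0.0514), with the replicate block (adjusted p = 0.0642), and without heart-beating donor 1 or 3, 4 h animal 1 or 2, or any 1 of the 16 h animals (-0.31 to -0.23, adjusted p from 0.0535 to 0.143). It was also lost with the Gapdh covariate, where 1 of the 11 probe sets was called higher and 0 lower from 4 to 16 h. Probe set 1369967_at had its lowest values at 4 h, with 7.81, 7.92 and 7.78 against 8.18, 8.03 and 8.19 in heart-beating donors, a difference of -0.30 (SE 0.07) with an adjusted p of 0.56. It read 8.18, 8.26 and 8.26 after 16 h, a rise of 0.39 from 4 h (SE 0.07, adjusted p = 0.00589), and 8.02, 8.20 and 8.13 after 30 h, where the difference from heart-beating donors was -0.02 (SE 0.07). The dim probe set 1396453_at read 5.39 to 5.48 in heart-beating donors and 5.52 to 5.63 at 30 h (difference 0.14, SE 0.07, adjusted p = 0.179).

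The inequality among the Cs probe sets was tested within arrays, by the change of each minus the change of the brightest. At 30 h 2 of 3 such pairs differed in limma, 1384201_at by -0.51 (SE 0.11, adjusted p = 0.00133) and 1369967_at by -0.33 (SE 0.09, adjusted p = 0.0112), while 1396453_at differed by -0.17 (SE 0.11, adjusted p = 0.237). Over all 6609 such pairs of 1 gene, 34.8% differed at 30 h, 14.1% at 16 h and 0.0454% at 4 h, so probe sets that disagree are common in the late groups. For Cs 1 of 3 pairs differed at 16 h (1384201_at, -0.39, SE 0.11, adjusted p = 0.0222) and 0 at 4 h. The 16 h call was lost without heart-beating donor 2 (-0.36, adjusted p = 0.0862) or 3 (-0.38, adjusted p = 0.0783) and without 16 h animal 1 (-0.41, adjusted p = 0.0532) or 2 (-0.37, adjusted p = 0.0887); the 30 h call of 1369967_at was lost without 30 h animal 2 (-0.26, adjusted p = 0.0532).

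Aco1, the cytosolic aconitase, converts citrate to isocitrate outside the mitochondrion and, without its iron-sulphur cluster, binds iron-responsive elements of transcripts. Its log2 signals were 9.59, 9.62 and 9.60 in heart-beating donors, 9.59, 9.52 and 9.42 after 4 h, 9.90, 10.003 and 10.07 after 16 h, and 10.12, 10.29 and 10.10 after 30 h. Every array of 16 and 30 h was above every array of the earlier groups, and the 30 h arrays were above those of 16 h. Aco1 rose by 0.39 at 16 h (SE 0.07, adjusted p = 0.01) and by 0.57 at 30 h (SE 0.07, adjusted p = 0.000186) against heart-beating donors, and by 0.48 from 4 to 16 h (SE 0.07, adjusted p = 0.00201). From 16 to 30 h it differed by 0.18 (SE 0.07, adjusted p = 0.138), called after cyclic loess (0.26, adjusted p = 0.0441) and after a further quantile normalization (0.31, adjusted p = 0.0238). With the Gapdh covariate the differences were of nearly the same size, 0.39 at 16 h (SE 0.13, adjusted p = 0.134) and 0.57 at 30 h (SE 0.28, adjusted p = 0.379), with larger errors and no call. Without 30 h animal 1 the 30 h rise was 0.59 (adjusted p = 0.000417).

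The NAD-dependent isocitrate dehydrogenase holds a catalytic alpha subunit, Idh3a, and a regulatory gamma subunit, Idh3g. Idh3a read 7.39, 7.01 and 7.22 in heart-beating donors, 7.27, 7.14 and 6.96 after 4 h, 7.21, 7.11 and 7.16 after 16 h and 7.26, 7.09 and 7.28 after 30 h. The groups overlapped at all times, and the 30 h difference was 0.00 with a 95% interval of -0.22 to 0.22 on the log2 scale. Idh3g read 8.69, 8.60 and 8.53 in heart-beating donors, 8.56, 8.75 and 8.57 after 4 h, 8.45, 8.36 and 8.24 after 16 h and 8.02, 8.39 and 8.38 after 30 h. The 16 and 30 h arrays lay below all heart-beating arrays. Idh3g differed by -0.25 at 16 h (SE 0.10, adjusted p = 0.188) and fell by 0.34 at 30 h (SE 0.10, adjusted p = 0.0302).

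Of the 5 falls at 30 h, that of Idh3g lost its call under the most alternatives. It was no longer called without heart-beating donor 1 (-0.30, adjusted p = 0.103), donor 2 (-0.35, adjusted p = 0.0688) or 30 h animal 1 (-0.22, adjusted p = 0.0989), with array weights (-0.26, adjusted p = 0.0624), or with only the groups compared (adjusted p = 0.0803). At 16 h it was called after cyclic loess (-0.33, adjusted p = 0.0388) and after a further quantile normalization (-0.34, adjusted p = 0.037). The within-array difference Idh3a minus Idh3g was -1.40 ± 0.16 (SD) in heart-beating donors against -1.05 ± 0.27 after 30 h. That was a shift of 0.35 without overlap between the groups (two-sided exact permutation p = 0.1, adjusted p = 0.12 over 6 tests). The groups nearly met, at -1.29538 in 30 h animal 2 and -1.29605 in heart-beating donor 1. At 16 h the shift was 0.21, also without overlap (exact p = 0.1, adjusted p = 0.12), and at 4 h it was -0.10 (exact p = 0.6, adjusted p = 0.6). A p of 0.1 is the smallest that 3 arrays against 3 can give, so this test could not pass the threshold at any size of shift.

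Dld, dihydrolipoyl dehydrogenase, is the E3 component that the 2-oxoglutarate, pyruvate and branched-chain 2-oxoacid dehydrogenase complexes and the glycine cleavage system share. Its signals were 9.20, 9.08 and 9.19 in heart-beating donors, 8.999, 9.13 and 9.06 after 4 h, 8.91, 8.62 and 8.81 after 16 h, and 7.56, 8.36 and 8.41 after 30 h. The heart-beating and 4 h arrays overlapped, those of 16 h lay below both, and those of 30 h lay below all others, with animal 1 apart from the rest. Dld differed by -0.37 at 16 h (SE 0.17, adjusted p = 0.253), and fell by 1.05 at 30 h (SE 0.17, adjusted p = 0.000992) and by 0.67 from 16 to 30 h (SE 0.17, adjusted p = 0.0254). The last was not called without 16 h animal 1 (-0.61, adjusted p = 0.112) or 3 (-0.66, adjusted p = 0.0657), or with only the groups compared (adjusted p = 0.101). Without 30 h animal 1, the difference from heart-beating donors was -0.77 (adjusted p = 0.000117) and the 16 h difference was called (adjusted p = 0.0141), as it was with array weights, with only the groups compared and without the 30 h arrays.

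Succinyl-CoA ligase joins an alpha subunit, Suclg1, to a beta subunit that sets the nucleotide, Suclg2 for the GDP-forming enzyme or Sucla2 for the ADP-forming one. Suclg1 read 10.74, 10.69 and 10.77 in heart-beating donors, 10.52, 10.67 and 10.58 after 4 h, 10.47, 10.35 and 10.28 after 16 h, and 8.61, 9.66 and 9.90 after 30 h. No group overlapped the one before it, and the mean was lower at each later time. The differences from heart-beating donors were -0.14 at 4 h (SE 0.23, adjusted p = 0.996) and -0.37 at 16 h (SE 0.23, adjusted p = 0.424), not called, and -1.34 at 30 h (SE 0.23, adjusted p = 0.00137), the largest among the 11 probe sets. From 16 to 30 h Suclg1 fell by 0.98 (SE 0.23, adjusted p = 0.0178), a call that ended without 16 h animal 1 (-0.93, adjusted p = 0.0789) or 2 (-0.98, adjusted p = 0.0505) and with only the groups compared (adjusted p = 0.0832). The SD between animals was 0.69 at 30 h, against 0.04 in heart-beating donors. Without 30 h animal 1 the 30 h difference was -0.95 (adjusted p = 2.99e-05), and the 16 h difference of -0.37 was called (adjusted p = 0.0151), as it was without any 30 h array (adjusted p = 0.00852) and with only the groups compared (adjusted p = 0.0154).

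Suclg2 was called at 30 h alone. It read 10.50, 10.36 and 10.33 in heart-beating donors, 10.44, 10.46 and 10.61 after 4 h, 10.55, 10.36 and 10.21 after 16 h and 9.40, 9.95 and 9.91 after 30 h. The first 3 groups overlapped and only the 30 h arrays lay below them. Suclg2 differed by -0.02 at 16 h (SE 0.13) and fell by 0.65 at 30 h (SE 0.13, adjusted p = 0.00395), or by 0.62 from 16 to 30 h (SE 0.13, adjusted p = 0.0103). Without 30 h animal 1 the 30 h difference was -0.47 (adjusted p = 0.00636), and the 16 to 30 h fall was not called without 16 h animal 1 (-0.53, adjusted p = 0.0604) or with only the groups compared (adjusted p = 0.053). Within arrays, Suclg1 minus Suclg2 was 0.33 ± 0.10 (SD) in heart-beating donors, 0.09 ± 0.12 after 4 h, -0.01 ± 0.08 after 16 h and -0.36 ± 0.39 after 30 h. The shift was -0.25 at 4 h, -0.34 at 16 h and -0.69 at 30 h, each without overlap with heart-beating donors (two-sided exact permutation p = 0.1, the smallest possible, adjusted p = 0.12 over the 6 tests of both subunit pairs).

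Mdh2, the mitochondrial malate dehydrogenase, closes the cycle by oxidising malate to oxaloacetate. It read 10.13, 10.19 and 10.22 in heart-beating donors, 10.02, 10.19 and 9.90 after 4 h, 9.90, 9.96 and 9.98 after 16 h, and 9.16, 9.62 and 9.87 after 30 h. The arrays of 16 and 30 h lay below all heart-beating arrays, and those of 30 h below those of 16 h. Mdh2 differed by -0.23 at 16 h (SE 0.14, adjusted p = 0.392) and fell by 0.63 at 30 h (SE 0.14, adjusted p = 0.00595). From 16 to 30 h the difference was -0.40 (SE 0.14, adjusted p = 0.0838), called without 30 h animal 3 (-0.56, adjusted p = 0.0115). Without 30 h animal 1 the 30 h difference was -0.43 (adjusted p = 0.00769).

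**Figure D2:**
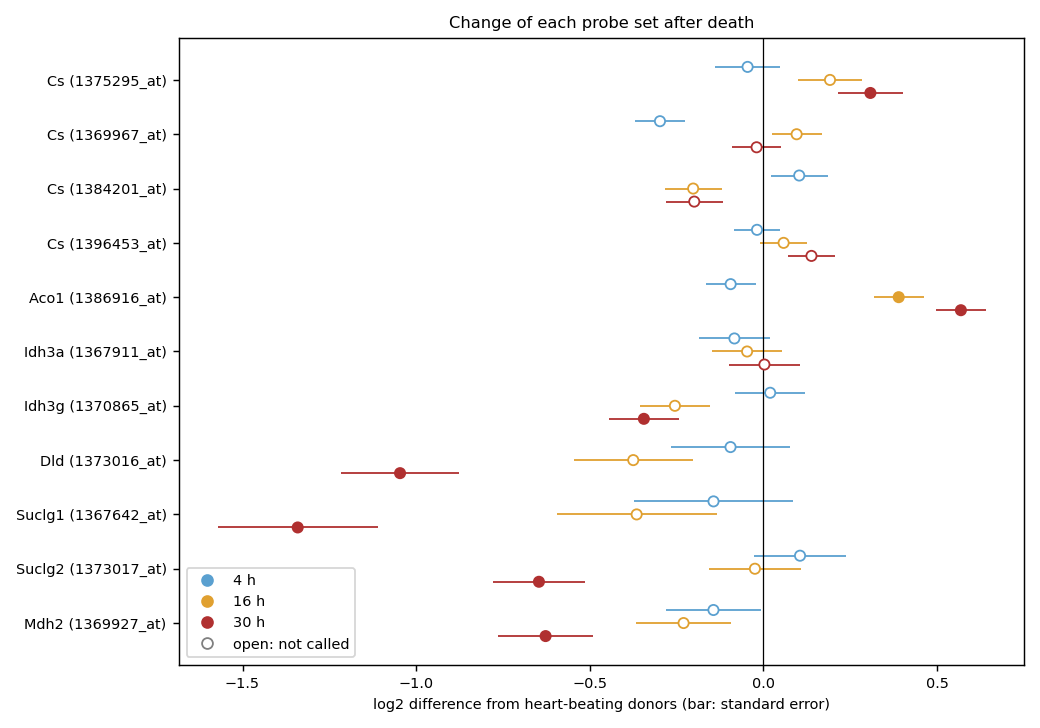
Log2 difference from heart-beating donors (x axis, bars are the standard error) for each of the 11 probe sets (y axis) at 4, 16 and 30 h, filled where called. The 4 h values are all open, Aco1 is the only filled point at 16 h, and at 30 h the called differences run from -1.34 for Suclg1 to 0.57 for Aco1.

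The 30 h falls were uneven between animals. Animal 1 of the 30 h group gave the lowest of the 3 values in 9 of the 11 probe sets, including all 5 that fell and all 4 of Cs. How often it was lowest over all probe sets was not counted. The Gapdh 3' minus 5' difference of animal 1 was the largest of all arrays (2.30, against 1.82 and 1.79 for animals 2 and 3). The mean deviation of those 5 probe sets from the heart-beating mean was -1.27 in animal 1, -0.62 in animal 2 and -0.52 in animal 3, against -0.31 to -0.16 at 16 h. With that Gapdh difference as a covariate, which differs mostly between the groups rather than within them, the 30 h difference of Suclg1 was 1.16 (SE 0.52), that of Dld 0.94 (SE 0.32), of Mdh2 0.62 (SE 0.39), of Idh3g 0.51 (SE 0.30) and of Suclg2 0.51 (SE 0.38), with adjusted p from 0.249 to 0.571. In that fit 0 of all 31042 probe sets were called at 30 h. The time after death and the Gapdh difference cannot be told apart in these groups.

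**Figure D3:**
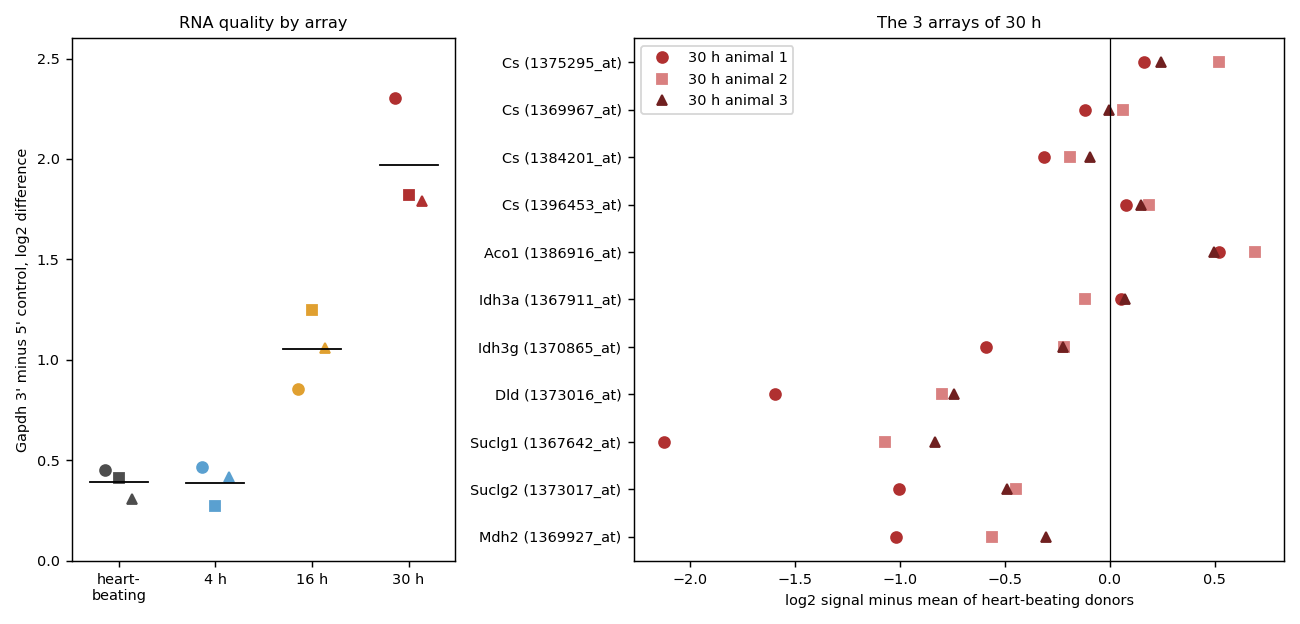
Left, the log2 difference between the 3' and 5' Gapdh control probe sets (y axis) of each array by donor group (x axis), with the mean of 3 as a bar. Right, the log2 signal of the 3 arrays of 30 h minus the heart-beating mean (x axis) for each probe set (y axis); animal 1, with the largest Gapdh difference (2.30), has the lowest value in 9 of 11.

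Other genes of the cycle were read from the same fit. Of 8 measured genes for other cycle enzymes 7 fell at 30 h and 0 rose, where 10.5% of all genes, by their brightest probe set, were lower and 12.5% higher, and the median difference was -0.47 against 0.01. Idh3b, the beta subunit of isocitrate dehydrogenase, fell by 0.57 (SE 0.10, adjusted p = 0.00114). Sdhd, the small membrane anchor of succinate dehydrogenase, fell by 0.49 by its brightest probe set (SE 0.09, adjusted p = 0.00161) and by 1.13 by its other (SE 0.12, adjusted p = 5.73e-05). The iron-sulphur subunit of that enzyme, Sdhb, fell by 0.69 (SE 0.13, adjusted p = 0.003) and the other membrane subunit, Sdhc, by 0.63 (SE 0.14, adjusted p = 0.00738). Dlst, the E2 component of the 2-oxoglutarate complex, was the 1 gene not called, at 0.15 (SE 0.12, adjusted p = 0.401). At 16 h 0 of 8 were called against heart-beating donors, where 1.3% of all genes were lower and 4.3% higher. All 10 probe sets of these genes gave 8 lower and 0 higher at 30 h, where 9.36% of all probe sets were lower and 10.4% higher. The count of 7 genes was 5 to 7 with 1 array left out, 5 without 30 h animal 1, and 0 with the Gapdh covariate. That last fit called 0 of all probe sets at 30 h.

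Partners of Dld in other complexes differed among themselves at 30 h. Of 7 measured genes 3 fell and 1 rose, where 10.5% of all genes were lower and 12.5% higher. Of their 11 probe sets 3 fell and 1 rose, where 9.36% of all probe sets were lower and 10.4% higher. Gcsh, the lipoyl carrier of the glycine cleavage system, fell by 1.06 (SE 0.15, adjusted p = 0.000356), and Gldc, its decarboxylase, by 0.90 (SE 0.16, adjusted p = 0.00173), with 2 further probe sets of Gldc at 0.07 and -0.06, not called. Bckdhb, of the branched-chain complex, fell by 0.68 (SE 0.15, adjusted p = 0.00574), while Amt, the aminomethyltransferase of glycine cleavage, rose by 0.54 (SE 0.08, adjusted p = 0.00045).

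Among 12 measured genes of pyruvate entry 2 fell and 1 rose at 30 h by the brightest probe set, near the shares of all genes (10.5% lower and 12.5% higher). Over all 18 probe sets of these genes 6 were lower and 1 higher, where 9.36% of all probe sets were lower and 10.4% higher. The further lower ones were those of Pdk1 (-1.59), Pdk4 (-0.80), Pdha1 (-0.63) and Pdk2. The brightest probe sets of Pdk1, Pdk4 and Pdha1, at 0.11, -0.09 and 0.20, were not called. Mpc2, of the mitochondrial pyruvate carrier, fell by 1.04 (SE 0.15, adjusted p = 0.000516) and Pdhb, of pyruvate dehydrogenase, by 0.23 (SE 0.07, adjusted p = 0.0476). The call of Pdhb was lost after median centring (-0.22, adjusted p = 0.0716), after both other scalings, and without any 1 of 10 of the 12 arrays, that is all but heart-beating donor 1 and 30 h animal 2. Pdk2, a kinase that inactivates that enzyme, rose by 0.66 by its brightest probe set (SE 0.08, adjusted p = 9.66e-05), while its other probe set was called lower (-0.47, adjusted p = 0.00357). The 12 probe sets of 8 cytosolic or NADP-dependent counterparts gave 2 lower and 2 higher, against 9.36% lower and 10.4% higher of all probe sets. By the brightest probe set Mdh1, the cytosolic malate dehydrogenase, fell by 0.43 (SE 0.09, adjusted p = 0.00435) and Acly, which splits citrate in the cytosol, rose by 0.50 (SE 0.16, adjusted p = 0.0383). The call of Acly was lost with array weights (0.37, adjusted p = 0.145) and without heart-beating donor 1 or 2, 4 h animal 3, 16 h animal 2, or 30 h animal 1 or 2, with differences from 0.39 to 0.50. Ireb2, the RNA-binding relative of Aco1, was at -0.21 (SE 0.10, adjusted p = 0.156). Of 7 genes that feed or drain the cycle 1 was called by its brightest probe set, where 10.5% of all genes were lower and 12.5% higher. Their 11 probe sets gave 2 lower and 1 higher, against 9.36% and 10.4% of all probe sets. The gene called was Glud1, glutamate dehydrogenase, which was lower (-0.60, SE 0.12, adjusted p = 0.00317), while its other probe set was called higher (0.44, adjusted p = 0.0015).

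**Figure D4:**
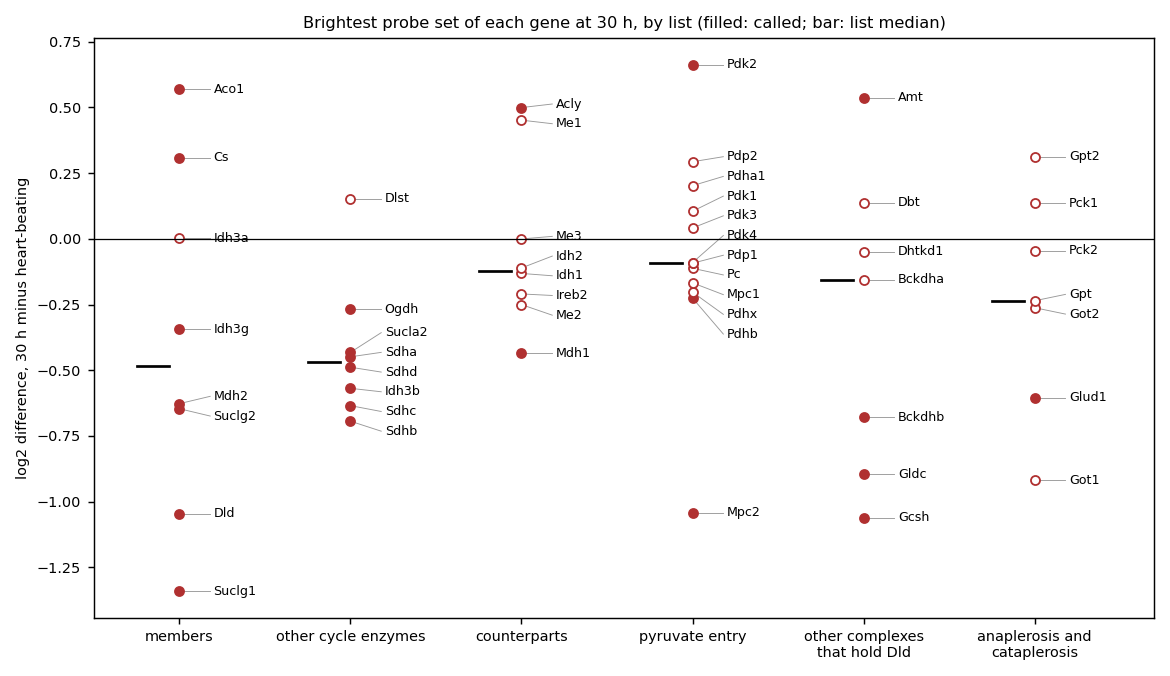
Log2 difference at 30 h from heart-beating donors (y axis) of the brightest probe set of each gene, grouped by list (x axis), filled where called, with the list median as a bar. The medians are -0.49 for the 8 members and -0.47 for the other cycle enzymes, against -0.12, -0.09, -0.16 and -0.24 for the remaining lists in the order shown.

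The genes whose profiles were closest to the 2 extremes were found by the root mean square difference over the 12 arrays, after the heart-beating mean was subtracted, among the brightest probe sets of 14216 other genes. For Suclg1 they were Amy1 (0.096 log2 units), Spp2 (0.123), Chchd1 (0.127), Smim14 (0.139) and Ndufs6 (0.141), with 30 h differences from -1.48 for Spp2 to -1.16 for Ndufs6. For Aco1 they were Prrc2b (0.0743), Efr3a (0.0772), Strn3 (0.0788), Zbtb18 (0.0855) and Serpine2 (0.0871), with 30 h differences from 0.51 for Prrc2b to 0.66 for Zbtb18. A flat profile lay 0.755 from Suclg1 and 0.354 from Aco1. This is a description of likeness with no test.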

How the data were processed

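RNA of 12 animals was measured on 12 Affymetrix rat arrays, 1 per animal. The authors deposited probe set signals on the log2 scale after RMA, per the submitters' processing notes, which also name limma without version or settings. RMA gives all arrays nearly 1 distribution (medians 5.83 to 5.90), so a signal is read against the other probe sets of its array. The number of arrays limits the precision.

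Samples were grouped by title. Of 31099 probe sets 57 are controls; the other 31042 were fitted with 1 mean per group on all 12 arrays with limma 3.58.1 (lmFit, eBayes) in R 4.3.3, with 8 residual and 4.93 prior degrees of freedom and Benjamini-Hochberg adjustment over all 31042; calls have adjusted p under 0.05. Of these, 20826 carry 1 gene symbol, 436 several and 9780 none in the platform table; 20758 matched RefSeq (assembly GRCr8) by gene ID. Lists were read by the brightest probe set of each gene, and up to 4 called genes with the smallest p at 30 h were named. The further genes named (Dlst, Ireb2, Hnf4a, Cps1, and Pdk1, Pdk4 and Pdha1 by their further probe sets) were chosen after their values were seen. Subunit pairs and RNA quality were tested by exact permutation over arrays. The members and lists were chosen with earlier results of these data known. The fit was tested on simulated data of 31042 probe sets with independent normal noise, each probe set having the same SD in all groups. With changes placed in the 30 h group it recovered 66 of 100 changes of 0.5 log2 units and 96 of 100 of 1, with 8 false calls. The real 30 h arrays differ from this setting. There 19.7% of all probe sets were called, and the median SD was 0.12 against 0.08 in heart-beating donors. These rates therefore need not hold for the real 30 h comparison. Alternatives were other scalings, filters, variance models, the replicate block, the Gapdh difference as a covariate, and each array left out.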

Additional observations from a re-analysis of the deposited data

How the results depend on the processing

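Of the 11 probe sets at 30 h against heart-beating donors, 7 were called, and 5 to 7 when 1 array was left out. With the Gapdh difference as a covariate 0 were called at 16 h, 0 at 30 h, 1 between 4 and 16 h and 0 between 16 and 30 h. Of all 31042 probe sets that fit called 0.226%, 0%, 4.19% and 0.0258% in the same order. Called values changed sign in it: at 30 h Dld to 0.94, Idh3g to 0.51, Mdh2 to 0.62, Suclg1 to 1.16 and Suclg2 to 0.51, and from 16 to 30 h Dld to 0.48, Suclg1 to 0.48 and Suclg2 to 0.047. So did, at 30 h, Idh3b to 0.31, Sdhb to 0.82, Sdhc to 0.84, Sdhd to 0.14, Mdh1 to 0.43, Mpc2 to 0.44, Pdhb to 0.0899, Gcsh to 0.58, Bckdhb to 0.76 and Glud1 to 0.54; the cause was not tested. At 16 h, where 1 was called, the count was 2 after cyclic loess, after a further quantile normalization and with array weights, 3 with only the groups compared and without the 30 h arrays, and 1 to 3 with 1 array left out (3 without 30 h animal 1). Between 4 and 16 h 3 were called, 1 with the brightest probe sets alone (fewer probe sets tested), 5 with array weights and without the 30 h arrays, and 2 to 5 with 1 array left out (5 without 30 h animal 1). Between 16 and 30 h 3 were called, 0 with only the groups compared and 0 to 4 with 1 array left out (0 without 16 h animal 1). The unequal Cs pairs numbered 0 to 1 at 16 h and 1 to 2 at 30 h with 1 array left out. With 1 array left out, the shifts after 4, 16 and 30 h of Suclg1 minus Suclg2 were -0.31 to -0.19, -0.39 to -0.29 and -0.87 to -0.48, those of Idh3a minus Idh3g -0.21 to -0.05, 0.11 to 0.26 and 0.20 to 0.47, and those of Gapdh -0.05 to 0.05, 0.57 to 0.76 and 1.41 to 1.67. With Actb in place of Gapdh the 3' to 5' shift was -0.14 at 4 h, 0.36 at 16 h and 1.02 at 30 h. At 4 h 0 of the 11 were called in any limma fit run (1 at an unadjusted p under 0.05 in the reported fit). The replicate block left 7 called at 30 h and ended 1 call among the members, 1384201_at of Cs between 4 and 16 h (-0.31, adjusted p = 0.0642). The labels do not say whether the numbers pair the animals, and 1 of 12 arrays was closest to an array of its own number. The arrays of 1 number correlated in their deviations at -0.27 to 0.11, with 2 of 18 pairs over 0.1. Arrays of unlike numbers did so at -0.23 to 0.24, with 7 of 36 pairs over 0.1.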

Other observations

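Probe sets of 1 gene also disagreed outside the members. The 5 lists of related genes held 20 further probe sets of 19 genes, and at 30 h 12 of the 20 (60%) changed unequally from the brightest probe set of their gene in limma, where 34.8% of all such pairs did. In 2 genes the probe sets were called in opposite directions. Glud1, glutamate dehydrogenase, was lower by its brightest probe set (-0.60, SE 0.12, adjusted p = 0.00317) and higher by the other (0.44, SE 0.08, adjusted p = 0.0015), a difference of 1.04 (SE 0.12, adjusted p = 1.77e-06). Pdk2, a pyruvate dehydrogenase kinase, was higher by its brightest probe set (0.66, SE 0.08, adjusted p = 9.66e-05) and lower by the other (-0.47, SE 0.09, adjusted p = 0.00357), a difference of -1.13 (SE 0.11, adjusted p = 4.23e-07). The largest inequality was in Pdk1, another such kinase, at 0.11 (SE 0.10) against -1.59 (SE 0.21). These genes were singled out after their values were seen.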
